A study of Homo sapiens with 4 samples.

Results

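MicroRNA host transcripts are the long RNAs out of which microRNA hairpins are cut. They were taken here as the genes whose symbol has the form MIR, a name and HG (MIR17HG, MIRLET7BHG), plus DLEU2, the host of miR-15a and miR-16-1. Of 64252 genes in the count table, 84 met this rule. At least 10 counts in at least 2 of the 4 libraries were found for 33 of them, and these 33 are described. Of the other 51, 28 had no count in any library and the highest count of the remaining 23 was 18.

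The RNA came from SK-N-BE(2), an established human neuroblastoma line that carries extra copies of the oncogene MYCN. Cells were transfected with a short hairpin RNA against IGF2BP3 (shIGF2BP3, 2 libraries) or with a hairpin used as control (shControl, named sh-NC in the study's design, again 2 libraries). The protein IGF2BP3 binds RNA and can hold transcripts carrying m6A, a methyl mark on RNA, and the series title concerns its effect on E2F2 mRNA. Both groups are the same line and both carry a hairpin. No source used here gives the hairpin sequence, the number of hairpins per target or the time after transfection. Since no label ties the 2 libraries of a group to different cultures, the p-values reflect the spread among 4 libraries only, and that spread may be technical.

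A microRNA gene is copied as a long primary transcript. DROSHA and DGCR8 cut a hairpin from it in the nucleus, exportin 5 (XPO5) with RAN carries the hairpin out, DICER1 trims it to a short duplex, and an AGO protein keeps the mature strand and uses its seed to pair with target mRNAs. What is left of the host is spliced, kept as a long non-coding RNA or degraded. A host level is therefore a measure of the spliced or unspliced long RNA, not of the microRNA. Mature microRNAs were not measured in these libraries. Of 63 hairpins lying on the same strand within the 32 described hosts that hold any, 36 were matched to a gene row of their own. Of these rows 20 had any count, 2 (MIR770 and MIR503) reached 10 counts in 2 libraries, and the highest count was 38.

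The hairpins sit differently in their hosts, by GENCODE 29 gene models on GRCh38. Of the 63, 26 were exonic, 36 intronic and 1 (MIR15A in DLEU2) crossed an exon boundary, and 7 hosts held 3 or more. MIR17HG (chromosome 13, 91347820 to 91354579, plus strand) is the polycistronic host of the miR-17-92 cluster, whose 6 hairpins (MIR17, MIR18A, MIR19A, MIR20A, MIR19B1 and MIR92A1) were all exonic. DLEU2 (chromosome 13, 49982552 to 50125720, minus strand) holds MIR3613 and MIR16-1 in introns and MIR15A at the boundary. The sequences of these clusters are shown because the cluster members fall into a few seed families, and those of 6 further hosts because these hosts changed most among hosts at or above a mean log2 CPM of 0. They are RefSeq mature sequences (GRCh38.p14), 5′ to 3′, with the seed (bases 2 to 8) in capitals.
miR-17-5p (MIR17HG): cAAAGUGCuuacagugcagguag
miR-20a-5p (MIR17HG): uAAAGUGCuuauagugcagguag
miR-18a-5p (MIR17HG): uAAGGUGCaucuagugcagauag
miR-19a-3p (MIR17HG): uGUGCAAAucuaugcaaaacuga
miR-19b-3p (MIR17HG): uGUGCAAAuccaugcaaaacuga
miR-92a-3p (MIR17HG): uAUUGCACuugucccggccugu
miR-15a-5p (DLEU2): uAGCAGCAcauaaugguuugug
miR-16-5p (DLEU2): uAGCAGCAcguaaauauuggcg
miR-22-3p (MIR22HG): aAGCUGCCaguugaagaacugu
miR-100-5p (MIR100HG): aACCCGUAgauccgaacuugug
let-7a-5p (MIR100HG): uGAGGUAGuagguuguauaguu
miR-125b-5p (MIR100HG): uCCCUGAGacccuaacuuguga
let-7i-5p (MIRLET7IHG): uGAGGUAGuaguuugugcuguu
miR-4435 (MIR4435-2HG): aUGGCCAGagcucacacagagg
miR-1915-3p (MIR1915HG): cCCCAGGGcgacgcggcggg
The sixth of these further hosts is MIR130AHG, host of miR-130a. Within MIR17HG, miR-17 and miR-20a share 1 seed and miR-19a and miR-19b share another. The seed of miR-18a differs from that of miR-17 by A4G (the base of miR-17 first, positions counted from the 5′ end of the microRNA), so 6 of 7 seed letters are shared. Of 63 hairpins, 60 were matched to RefSeq, giving 102 mature sequences with 88 different seeds. The other hairpins, MIR124-1, MIR124-2 and MIR1302-9, were not compared, so a seed shared by MIR124-1HG and MIR124-2HG would not be counted. Only hairpins wholly within the GENCODE 29 span of a host were taken, so seeds of hairpins across its edge are not counted. Of the 88 seeds compared, 6 occurred in more than 1 described host. The let-7 seed GAGGUAG occurred in MIR100HG, MIR99AHG, MIRLET7BHG, MIRLET7IHG and MIR4458HG, the seeds ACCCGUA and CCCUGAG in MIR100HG and MIR99AHG, AGCAGCA in DLEU2 and MIR497HG, and both seeds of miR-9 (CUUUGGU and UAAAGCU) in MIR9-1HG and MIR9-3HG.

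Library totals were 26755695 to 31946756 counts, and the 84 members together took 0.0452% to 0.0638% of them. Where a library has 0 counts of a gene, the level may still be as high as 3 counts, or 0.0958 to 0.111 CPM (counting error only). Libraries of the same group differed beyond counting noise (chi-square per degree of freedom 6.76 and 7.80, against 129 to 135 between libraries of different groups). The targeted gene IGF2BP3 went from 4215 and 4347 counts under the control hairpin to 813 and 875 (log2 -2.28, SE 0.09). Its adjusted p was 1.65e-12 by the quasi-likelihood test of edgeR, adjusted by the Benjamini-Hochberg method over 19767 genes, and every p credited to edgeR below is of that kind. The 8 adrenergic neuroblastoma markers were all detected, with a summed level of 5681 to 6032 CPM in shIGF2BP3 and 7188 to 7416 CPM in shControl. Of these, 6 fell (75%) and 1 (DBH) rose (12.5%), against 25.6% and 25.9% of all tested genes. The 8 fibroblast markers were also all detected, at 1037 to 1053 CPM in shIGF2BP3 against 831 to 865 CPM in shControl. COL1A2 had only 13 to 43 counts per library. Of the 8 fibroblast markers, 4 rose (50%) and 1 (LUM) fell (12.5%), against the same 25.9% and 25.6%, and 3 were not called. COL1A1 rose by 1.77 and COL3A1 by 1.62 on the log2 scale. Markers of Schwann cells and glia summed to 5.72 to 9.44 CPM over both groups, of leukocytes to 1.05 to 2.75 CPM, of epithelium to 5.36 to 12.7 CPM and of endothelium to 1.52 to 3.80 CPM, with SOX10, LYZ, CD3E, PECAM1 and KDR at 0 in all libraries. The part of these marker shifts in the host changes was not tested, and in these bulk samples fewer cells of a type and less RNA per cell cannot be told apart.

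After knockdown, 14 of the 33 hosts changed, 9 rising and 5 falling, and 19 did not pass the test. MIR22HG, MIR4435-2HG and MIR100HG rose most, by 6.02-fold, 2.90-fold and 2.55-fold. MIR130AHG, MIR1915HG and DLEU2 fell most, by 5.33-fold, 3.30-fold and 2.50-fold, and MIR17HG fell by 1.91-fold. These shares stand against a table in which a large part of all genes was called. Among all 19767 tested genes, 51.5% were called in either direction, 25.9% higher and 25.6% lower, while among the hosts 42.4% were called, 27.3% higher and 15.2% lower. Library values stayed apart between the groups for 20 of 33 hosts (60.6%), against 74.5% of all tested genes. Among the 2960 tested genes of a long non-coding type in GENCODE 29, 28.3% were called. The median log2 fold change was 0.11 for the hosts, 0.01 for all tested genes and 0.17 for the long non-coding genes. All 33 described hosts were tested and none of the other 51 was, and 6 of the 14 changed by at least 2-fold.

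**Figure D1:**
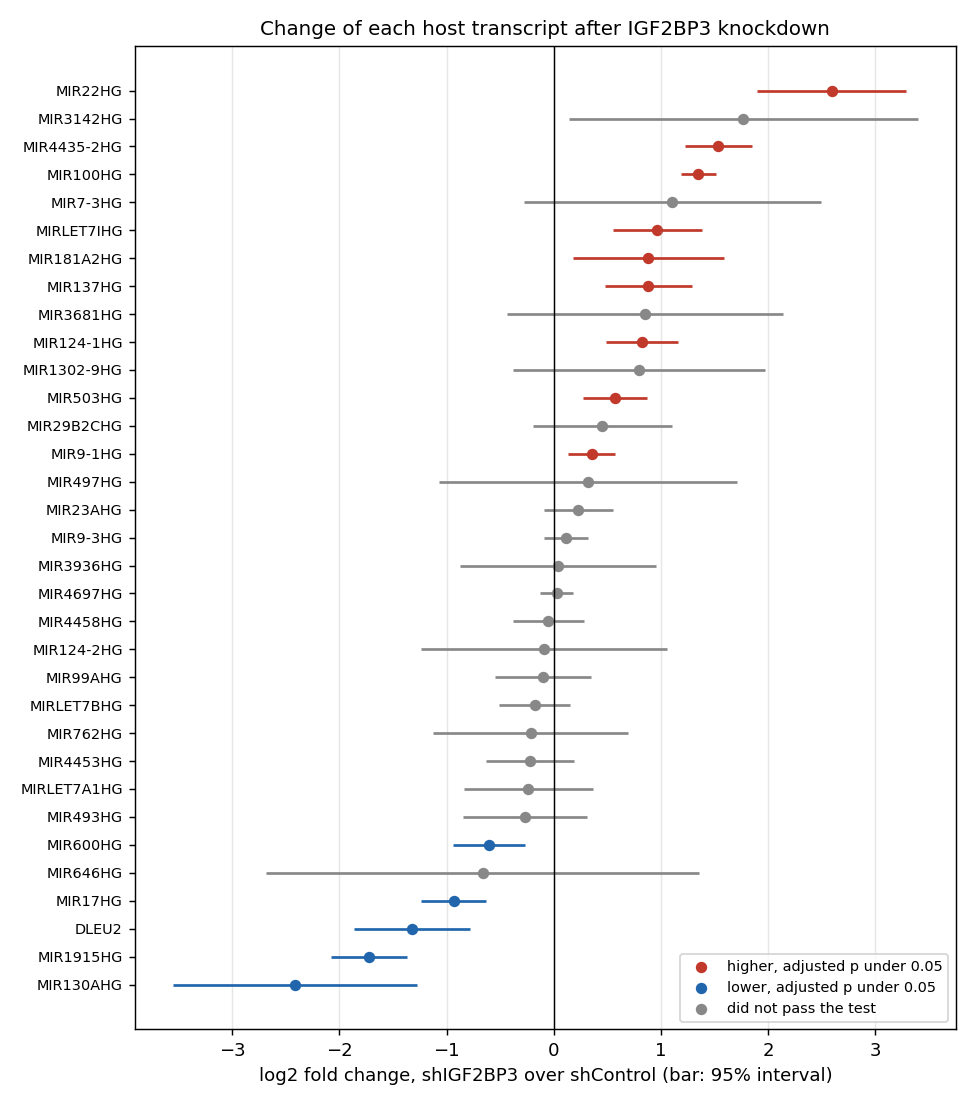
Log2 fold change of each of the 33 described hosts (shIGF2BP3 over shControl, x axis) with its 95% interval, coloured by whether it rose, fell or was not called. The 9 hosts that rose run from MIR9-1HG (0.35) to MIR22HG (2.59) and the 5 that fell from MIR600HG (-0.60) to MIR130AHG (-2.42).

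MIR17HG fell in the knockdown. Its microRNAs are widely known as promoters of proliferation, and MYC proteins are known activators of the host. The 4 libraries gave 10.6 and 10.4 CPM in shIGF2BP3 against 19.8 and 20.3 CPM in shControl (300 and 285 against 532 and 634 counts). Both knockdown libraries lay well below both controls, with little spread within either group. The mean went from 20.0 ± 0.351 to 10.5 ± 0.142 CPM (SD, n = 2 each), a log2 fold change of -0.93 (SE 0.14, 95% interval -1.24 to -0.63, adjusted p = 2.93e-05, edgeR). MYCN fell by 0.22 on the log2 scale in the same fit (adjusted p = 0.00449, edgeR).

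DLEU2 fell as well. It is a long non-coding RNA of the 13q14 region, which is often deleted in chronic lymphocytic leukaemia, and its miR-15a and miR-16 restrain cell cycle genes and BCL2. Counts were 63 and 81 in shIGF2BP3 and 172 and 204 in shControl, or 2.22 and 2.95 against 6.39 and 6.52 CPM. The groups were far apart, and the mean went from 6.45 ± 0.0915 to 2.59 ± 0.515 CPM (SD, n = 2 each). This is -1.32 on the log2 scale (SE 0.26, 95% interval -1.86 to -0.78, adjusted p = 0.000304, edgeR). DLEU2 shares 6.78% of its exonic bases with TRIM13 on the opposite strand, whose level was nearly the same in both groups (31.4 ± 3.45 against 31.5 ± 1.21 CPM), and 12.8% of its longest transcript is near-identical to DLEU2L, so some reads could have been split among them.

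The gene neighbourhood of DLEU2 was read from 8 genes, of which 6 were tested. KPNA3, an importin, fell by 1.02 on the log2 scale, EBPL by 0.94 and RNASEH2B, a subunit of the ribonuclease that removes ribonucleotides from DNA, by 0.83. DLEU1, the long non-coding gene beside DLEU2, also fell, by 1.22. SPRYD7 rose by 0.96, and TRIM13, a ubiquitin ligase, was not called (DLEU1 and TRIM13 were chosen for mention after their values were seen). Thus 4 of 6 fell (66.7%, against 25.6% of all tested genes) and 1 rose. Their median was -0.88, beside 0.01 over all tested genes.

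MIR503HG, on the X chromosome (134543337 to 134546632, minus strand), moved the other way. Its microRNA is listed here after the values were seen, because its seed is close to that of miR-16.
miR-16-5p (DLEU2): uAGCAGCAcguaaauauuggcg
miR-503-5p (MIR503HG): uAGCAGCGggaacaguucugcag
The 2 seeds share 6 of 7 letters and differ by A8G (miR-16-5p first, positions from the 5′ end). MIR503HG stood at 29.8 and 22.5 CPM in shIGF2BP3 and 17.2 and 18.0 CPM in shControl. The shIGF2BP3 libraries were spread over a wider range but both lay above the control pair. It rose by 0.57 on the log2 scale (SE 0.14, adjusted p = 0.00248, edgeR). Without the first shIGF2BP3 library it was 0.36 and no longer passed (adjusted p = 0.0844, edgeR). Counts of MIR503HG were 13.4 and 7.63 times those of DLEU2 in shIGF2BP3 and 2.69 and 2.75 times in shControl, a difference of 1.89 on the log2 scale with no overlap, where 2 against 2 libraries cannot give an exact two-sided permutation p under 0.333. MIR497HG, host of miR-195 and miR-497 with the miR-16 seed, had only 9 to 28 counts per library (log2 0.32, not called).

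**Figure D2:**
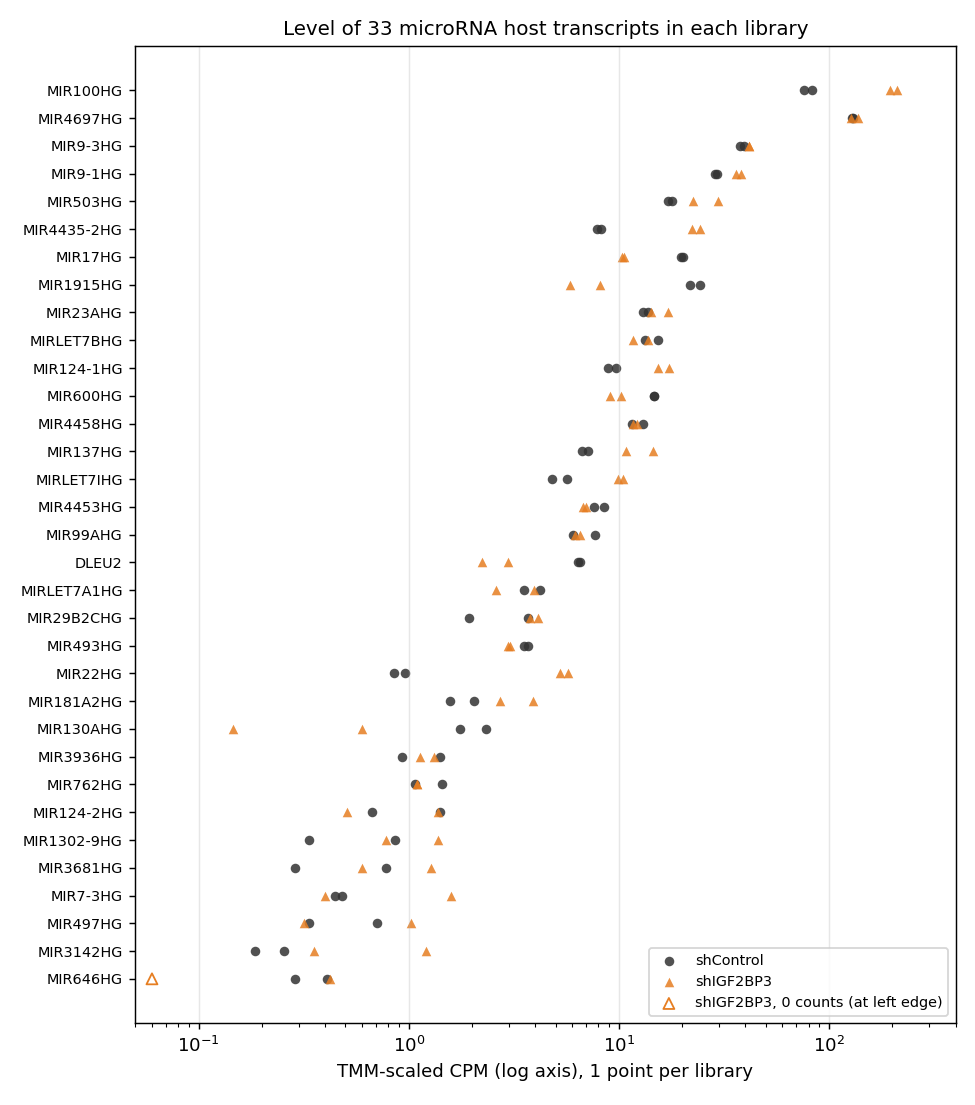
Level of each of the 33 described hosts in each of the 4 libraries (TMM-scaled CPM, log axis), 1 point per library and coloured by group. MIR100HG and MIR22HG show a wide gap between the groups, while the points of MIR4697HG lie together.

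The hosts of let-7, miR-99, miR-100 and miR-125 differed among themselves. These 3 microRNA families are encoded together in related clusters, and let-7 is known as a brake on LIN28B, MYC proteins and RAS in differentiated cells. MIR100HG (chromosome 11, 122028327 to 122556721, minus strand) carries MIR125B1, MIRLET7A2 and MIR100 in introns and was the most abundant host by CPM in shIGF2BP3, while MIR4697HG was above it in shControl (129.9 against 79.7 CPM). It had 195 and 211 CPM in shIGF2BP3 and 83.3 and 76.0 CPM in shControl. Both shIGF2BP3 values were more than 2 times either control value. The mean rose from 79.7 ± 5.21 to 202.7 ± 11.4 CPM (SD, n = 2 each), a log2 fold change of 1.35 (SE 0.08, 95% interval 1.19 to 1.51, adjusted p = 1.06e-10, edgeR). Of the 8 fibroblast markers, 4 rose like MIR100HG (50%, against 25.9% of all tested genes), LUM fell by 1.09 on the log2 scale and 3 were not called. Their part in the rise of MIR100HG was not tested.

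MIR99AHG, with the sister cluster of MIR99A, MIRLET7C and MIR125B2 in introns, did not change detectably. It stood at 6.57 and 6.20 CPM in shIGF2BP3 and 7.72 and 6.07 CPM in shControl, where the groups overlap (log2 -0.10, 95% interval -0.55 to 0.34). The count ratio of MIR100HG to MIR99AHG was 29.7 and 34.0 in shIGF2BP3 and 10.8 and 12.5 in shControl, a difference of 1.45 on the log2 scale. So the proportion of the 2 hosts, which carry the same 3 seeds, differed between the groups with no overlap. This pair and the 4 other host pairs compared as ratios were chosen after their values were seen, and none can reach an exact two-sided permutation p under 0.333.

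MIRLET7IHG (chromosome 12, 62602752 to 62622213, plus strand) rose, from 5.68 and 4.79 CPM in shControl to 10.5 and 9.88 CPM in shIGF2BP3. Its groups were well apart, at a log2 fold change of 0.97 (SE 0.20, adjusted p = 0.000495, edgeR). MIRLET7BHG, which spans MIRLET7A3 and MIRLET7B in exons, had 13.8 and 11.6 CPM in shIGF2BP3 and 13.3 and 15.4 CPM in shControl (log2 -0.18, 95% interval -0.51 to 0.15). Its groups overlap. The ratio of MIRLET7IHG to MIRLET7BHG counts was 0.760 and 0.850 in shIGF2BP3 and 0.427 and 0.311 in shControl, 1.14 apart on the log2 scale. MIR4458HG (log2 -0.05) and MIRLET7A1HG (log2 -0.24) were not called either. MIRLET7A1HG shares 78.7% of its exonic bases with other genes, so its reads are uncertain. Of the 6 hosts that carry or are named for let-7, or carry its seed, 2 rose and 4 were not called, beside 25.9% of all tested genes that rose. LIN28B, which blocks let-7 maturation and is itself a let-7 target, rose from 56.6 ± 3.99 to 88.5 ± 10.5 CPM (SD, n = 2 each, log2 0.65, adjusted p = 1.56e-05, edgeR). LIN28A had 7 counts in 1 shIGF2BP3 library and none in the other 3.

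Among hosts of neural microRNAs, MIR9-1HG, MIR124-1HG and MIR137HG rose, while MIR9-3HG, MIR124-2HG and MIR7-3HG were not called. miR-9, miR-124 and miR-137 are enriched in the nervous system and act in neural progenitors and neurons. MIR9-1HG, called C1orf61 in GENCODE 29 (chromosome 1, 156404250 to 156430701, minus strand), had 38.3 and 36.0 CPM in shIGF2BP3 and 28.8 and 29.3 CPM in shControl, a log2 fold change of 0.35 (SE 0.10, adjusted p = 0.00836, edgeR). The groups did not overlap, but without the first shIGF2BP3 library the value was 0.31 and the test was missed (adjusted p = 0.0692, edgeR). MIR9-3HG, the other miR-9 host described, had 41.4 and 41.8 CPM against 39.3 and 37.6 CPM, with groups just apart and a log2 difference of 0.11 (95% interval -0.09 to 0.32) that was not called. The ratio of MIR9-1HG to MIR9-3HG counts was 0.923 and 0.861 in shIGF2BP3 and 0.732 and 0.779 in shControl.

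MIR124-1HG (LINC00599 in GENCODE 29) rose from 9.66 and 8.85 CPM in shControl to 15.4 and 17.2 CPM in shIGF2BP3 (log2 0.82, SE 0.16, adjusted p = 0.000281, edgeR). MIR124-2HG had 14 to 39 counts per library and its groups overlapped (log2 -0.09, 95% interval -1.24 to 1.06), so a change of the size of MIR124-1HG was not detectable at this depth. The ratio of the 2 also overlapped between the groups. MIR137HG (chromosome 1, 97933474 to 98049863, minus strand), with MIR137 and MIR2682 in exons, had 14.6 and 10.8 CPM in shIGF2BP3 and 6.65 and 7.12 CPM in shControl. Both shIGF2BP3 libraries lay above both controls, at a log2 fold change of 0.88 (SE 0.19, adjusted p = 0.000904, edgeR). It shares 6.89% of its exonic bases with DPYD on the same strand, which fell by 0.32 on the log2 scale. MIR7-3HG, a host expressed in endocrine cells, was not called (log2 1.11). Its first shIGF2BP3 library, with 45 counts, lay far above the second (11) and both controls (13 and 14).

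MIR22HG (chromosome 17, 1711493 to 1717174, minus strand) showed the largest rise of the 33. miR-22 lies in an exon of this host and is widely described as an inhibitor of growth, and the host is known to respond to cell stress. Counts were 163 and 144 in shIGF2BP3 against 23 and 30 in shControl, or 5.75 and 5.25 against 0.854 and 0.958 CPM. The 2 groups are far apart at a low level. The log2 fold change was 2.59 (SE 0.33, 95% interval 1.90 to 3.28, adjusted p = 3.16e-06, edgeR).

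MIR4435-2HG (chromosome 2, 111036776 to 111523376, minus strand) is a long non-coding RNA reported in many tumours and in myeloid cells, with its hairpin in an intron. It rose from 7.84 and 8.24 CPM in shControl to 22.3 and 24.3 CPM in shIGF2BP3, a clear gap (log2 1.53, SE 0.15, adjusted p = 1.19e-07, edgeR). CYTOR, a near-identical gene elsewhere on chromosome 2, matches 68.1% of its longest transcript at 97% identity or more. CYTOR went up too, from 91 and 117 counts in the controls to 272 and 224 (log2 1.32, SE 0.22, adjusted p = 7.96e-05, edgeR). How the reads of these 2 genes were divided is uncertain, since no source used here gives the counting rule.

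MIR1915HG, called CASC10 in GENCODE 29 and annotated there as protein-coding (chromosome 10, 21492658 to 21497262, minus strand), fell. It had 8.12 and 5.83 CPM in shIGF2BP3 and 21.7 and 24.3 CPM in shControl, so that each control library held more than 2 times either knockdown library. The fall was -1.72 on the log2 scale (SE 0.17, adjusted p = 1.31e-07, edgeR). MIR600HG (chromosome 9, 123109494 to 123115477, minus strand) fell from 14.7 and 14.6 to 9.11 and 10.2 CPM (log2 -0.60, SE 0.16, adjusted p = 0.00402, edgeR). It lies within STRBP on the same strand and shares 4.24% of its exonic bases with it; STRBP fell by 0.26.

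MIR130AHG (chromosome 11, 57638024 to 57652790, plus strand) fell from 63 and 55 counts in the controls to 17 and 4. Its microRNA, miR-130a, is known from blood and vessel development. The shIGF2BP3 libraries differed several-fold from each other but both lay below the controls (0.600 and 0.146 against 2.34 and 1.76 CPM). The log2 fold change was -2.42 (SE 0.54, 95% interval -3.55 to -1.28, adjusted p = 0.00109, edgeR), and it ran from -3.76 to -1.75 when single libraries were left out. On the opposite strand YPEL4 overlaps 6.11% of its exonic bases and rose by 1.70 (adjusted p = 6.28e-06, edgeR), and reads of this stretch could have gone to either gene.

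MIR181A2HG, on chromosome 9 (124658467 to 124698631, plus strand) with MIR181A2 and MIR181B2 in introns, had the highest adjusted p of the 9 rises. Counts were 77 and 107 in shIGF2BP3 and 55 and 49 in shControl, with groups apart (log2 0.88, SE 0.33, adjusted p = 0.0338, edgeR). Without the second shIGF2BP3 library it was 0.61 (adjusted p = 0.273, edgeR) and without the second shControl library 0.67 (adjusted p = 0.196, edgeR). DESeq2 did not call it (adjusted p = 0.119), nor did edgeR without the filter on low counts (adjusted p = 0.0815).

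Several abundant hosts showed no detectable change. MIR4697HG (chromosome 11, 133896438 to 133901601, minus strand) had 138 and 127 CPM in shIGF2BP3 and 131 and 129 CPM in shControl. Its 4 libraries lay close together and the log2 difference was 0.03 (95% interval -0.12 to 0.18). MIR23AHG, the host of the miR-23a, miR-27a and miR-24-2 cluster, had 17.0 and 14.3 CPM against 13.8 and 13 CPM, just apart and not called (log2 0.23, 95% interval -0.09 to 0.55). Together MIR100HG and MIR4697HG held 53.8% and 55.5% of the summed CPM of the 33 hosts in shIGF2BP3 and 45.8% and 44.5% in shControl. That sum was 617 and 609 CPM in shIGF2BP3 against 468 and 461 CPM in shControl. Without MIR100HG it was 422 and 398 against 384 and 385 CPM, so most of the difference in the sum lay in this 1 gene.

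The remaining hosts were not called. MIR4453HG (log2 -0.22), MIR29B2CHG (0.45) and MIR493HG (-0.27) had mean levels of 3.30 to 7.47 CPM over all libraries. MIR493HG spans 10 intronic hairpins of the imprinted 14q32 region. It shares 84.3% of its exonic bases with other genes, 78.8% with MEG8 alone, so its reads are uncertain. MEG8, on the same strand, fell by 0.95 on the log2 scale (adjusted p = 0.0136, edgeR). MIR762HG shares 56.4% and MIR497HG 44.0% of their exonic bases with other genes. MIR3936HG (0.04), MIR762HG (-0.22), MIR1302-9HG (0.80), MIR3681HG (0.85), MIR3142HG (1.77) and MIR646HG (-0.66) had mean levels of 0.280 to 1.19 CPM. MIR3142HG, which spans the miR-146a hairpin, went from 5 and 8 counts in the controls to 10 and 33. Its groups did not overlap and it missed the test (adjusted p = 0.0655, edgeR). MIR646HG (12, 0, 11 and 9 counts), MIR3142HG and MIR497HG were the members that met the count rule in exactly 2 libraries. Just outside were MIR302CHG with 6 to 16 counts and 1 library at 10 or more, MIR193BHG with 1 to 18, MIR3677HG with 4 to 17 and MIR181A1HG with 2 to 11.

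Levels between genes were compared per kilobase of exon. By the union of all exons MIR4697HG was highest, with 25.2 ± 0.195 CPM per kb in shControl and 25.6 ± 1.43 in shIGF2BP3 (SD, n = 2 each). MIR503HG followed with 10.5 ± 0.320 and 15.6 ± 3.05 CPM per kb. In shControl the next were MIR1915HG (6.06 ± 0.481 CPM per kb), MIR17HG (5.73 ± 0.101) and MIR9-3HG (5.30 ± 0.165), and MIR1915HG and MIR17HG did not differ beyond their spread. In shIGF2BP3 MIR1915HG went from rank 3 to 14 and MIR17HG from rank 4 to 8, while MIR100HG went from rank 6 (4.11 ± 0.269 CPM per kb) to rank 3 (10.5 ± 0.587). Divided by the longest transcript alone, MIR100HG in shControl stood at 23.6 CPM per kb, beside MIR503HG at 23.1 and MIR4697HG at 25.2. In shIGF2BP3 that length gave 60.1 for MIR100HG, 34.4 for MIR503HG and 25.6 for MIR4697HG, so the order, and which host is highest, depends on the length used.

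**Figure D3:**
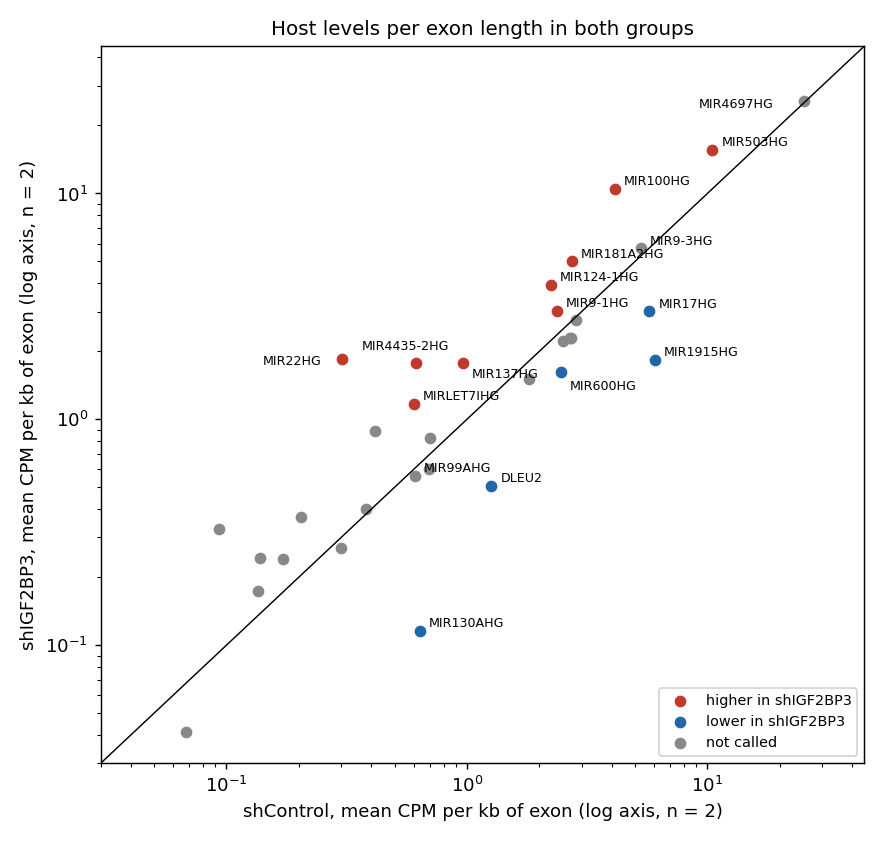
Mean level of each described host per kilobase of exon union in shControl (x axis) and shIGF2BP3 (y axis), both log axes, n = 2 libraries each, with the line of equal level. MIR100HG, MIR4435-2HG and MIR22HG lie above the line, and MIR1915HG, DLEU2 and MIR130AHG below it, while MIR4697HG (25.2 and 25.6 CPM per kb) lies on it.

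Promoter sequence was searched for 2 kinds of letters, because MYC and E2F proteins are known regulators of proliferation clusters. RefSeq promoters (GRCh38.p14, 250 bases before to 50 after the start) were at hand for 28 of the 33 hosts. The E-box CACGTG, the letters bound by MYC proteins and by other basic helix-loop-helix factors, was found in 1 of 28 (3.57%), against 8.77% of 27305 genes. This was DLEU2, which fell, shown with the E-box in capitals.
DLEU2 promoter window, chr13:50125755-50125782, minus strand, 230 bases before the start: tcccgggcgggCACGTGacggggttggc
The E2F letters TTTGGCGC, TTTCGCGC or TTTCCCGC on either strand were found in 1 of 28 (MIR762HG, not called), against 3.30% of genes. A match describes these letters only, and a missing match says nothing about a factor.

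RNA levels of the genes for proteins that make and use microRNAs changed in both directions. Of 26 tested genes, 9 were higher, 11 lower and 6 not called (median 0.01). The share called was 76.9%, against 51.5% of all tested genes, with 34.6% higher and 42.3% lower. DROSHA, which cuts the hairpin from the host, fell from 104.7 ± 0.678 to 65.3 ± 2.04 CPM (SD, n = 2 each, log2 -0.68, adjusted p = 8.76e-07, edgeR). Its partner DGCR8 was not called (log2 -0.10, 95% interval -0.27 to 0.06). RAN, which loads exportin 5, fell by 1.16 on the log2 scale. DICER1 had a log2 difference of -0.22 (adjusted p = 0.0115, edgeR), a call that was lost with library-size scaling (adjusted p = 0.0848, edgeR). AGO2, the slicing Argonaute, fell from 48.0 ± 5.95 to 25.1 ± 3.28 CPM (log2 -0.94, adjusted p = 3.52e-06, edgeR). CNOT1, the scaffold of the deadenylase that silenced mRNAs recruit, fell by 1.49 and the helicase MOV10 by 1.04, while TNRC6C, a GW182 protein that binds Argonaute, rose by 1.18.

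Hosts of other kinds are given beside these as counts, with no test between lists. Of 41 tested protein-coding genes listed as microRNA hosts, 13 rose (31.7%) and 19 fell (46.3%), against 25.9% and 25.6% of all tested genes. Their median was -0.23. MCM7, a DNA replication helicase subunit and host of the miR-106b-25 cluster, a paralog of miR-17-92, fell from 342 ± 11.4 to 116.4 ± 5.18 CPM (SD, n = 2 each, log2 -1.55). SMC4, a condensin subunit and host of miR-15b and miR-16-2, fell by 1.40, and SREBF2, the regulator of cholesterol synthesis and host of miR-33a, by 1.24. CLCN5, a chloride channel gene and host of miR-188 and miR-532, rose by 1.64. Thus MIR17HG and MCM7, which host related clusters, both fell, and so did DLEU2 and SMC4, which both host a miR-16 hairpin. Of 6 tested non-coding hosts outside the HG names, 1 rose and 4 fell (66.7%, against 25.6% of all tested genes), with a median of -0.59. H19, the imprinted host of miR-675, fell by 1.66, MEG3 by 0.52 and MEG9 by 0.66 on the log2 scale. FTX, an X-linked host, rose by 0.70 and lost its call without the first shIGF2BP3 library (adjusted p = 0.0553, edgeR). Of 24 tested host genes of small nucleolar RNAs, which carry another class of small RNA in introns, 4 rose and 9 fell (median -0.19). The share called was 54.2%, near the 51.5% of all tested genes. By direction, 16.7% rose and 37.5% fell, against 25.9% and 25.6% of all tested genes. SNHG7 (-1.25), SNHG5 (-1.0) and SNHG1 (-0.92) were lower and SNHG14 (0.48) higher.

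**Figure D4:**
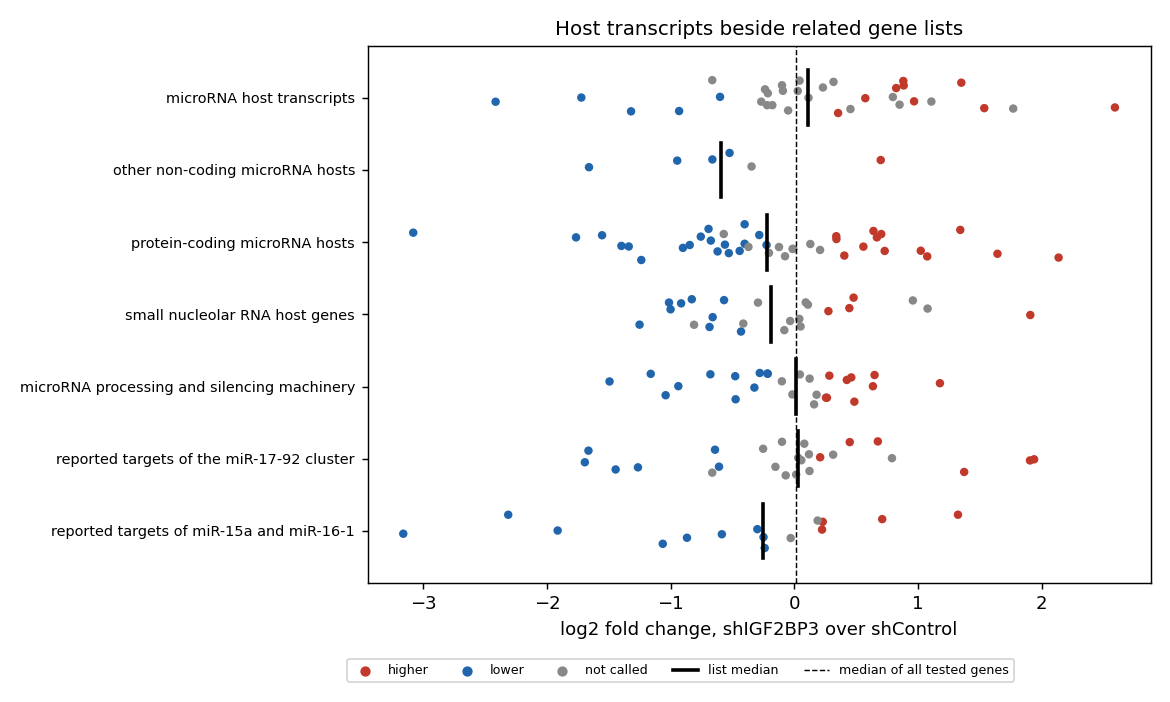
Log2 fold change (shIGF2BP3 over shControl) of every tested gene in the described hosts and in the related lists, 1 point per gene, coloured by call, with the list median as a bar and the median of all tested genes (0.01) as a dashed line. The hosts' median is 0.11, and among the lists drawn the other non-coding microRNA hosts have the lowest, -0.59.

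Reported targets of microRNAs hosted by MIR17HG and DLEU2 were read from lists taken from general knowledge. Of 25 tested targets of miR-17-92, 6 rose, 6 fell and 13 were not called, with a median of 0.03. The 24% that rose and 24% that fell are near the 25.9% and 25.6% of all tested genes. THBS1, an inhibitor of vessel growth, rose by 1.90 and DKK3, a WNT pathway antagonist, by 1.37 on the log2 scale. E2F2 and E2F1, cell cycle activators that are also reported activators of the cluster, fell by 1.69 and 1.45. Of 15 tested targets of miR-15a and miR-16-1, 4 rose, 9 fell and 2 were not called (median -0.25). The share that rose was 26.7% and that which fell 60%, against 25.9% and 25.6% of all tested genes. WEE1 (-1.91), CHEK1 (-1.06) and CDC25A (-2.31), all cell cycle control genes, were lower. The levels of the microRNAs themselves were not analysed here.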

How the data were processed

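Whole-number counts per Ensembl gene were deposited by the authors for 4 libraries. HISAT2 2.2.0, StringTie and hg38 are named per the submitters' processing notes. Annotation release, strand setting and counting rule are not given in sources used here, so reads of overlapping, antisense and near-identical genes are uncertain. Libraries were made from TRIzol total RNA with a TruSeq kit, per the labels' protocols.

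Symbols came from a gene name table for 56105 identifiers and from GENCODE 29 for 486 more, and 7661 had none. The test was that of edgeR 4.0.16 (R 4.3.3): filterByExpr with a smallest count of 10, TMM scaling, robust quasi-likelihood test, Benjamini-Hochberg adjustment over 19767 genes and a threshold of 0.05. Residual degrees of freedom were 2, with a median of 15.06 added by the shared prior, at a common biological coefficient of variation of 12.62%. CPM are TMM-scaled and given as mean ± SD over 2 libraries. Library totals of 26755695 to 31946756 counts set the precision, and intervals cover 95%. Exon lengths and hairpin positions are those of GENCODE 29, and near-identical copies were searched with BLAST 2.17.0 (97% identity over 200 bases). The pipeline was tested on simulated counts.

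The members, lists and markers were chosen with earlier results of these data known, so counts over them are descriptions. Every member with 10 or more counts in at least 2 libraries is named. The 12 most abundant by CPM and every one past the test get a value for each library. Up to 4 members of each list with the smallest p, and DROSHA, DGCR8, DICER1 and AGO2, are named, and other genes were chosen after their values were seen. Not every gene that this rule takes is reported here. As alternatives, DESeq2 1.42.0, limma 3.58.1 voom, an older edgeR fit, other scalings and count filters, a replicate block and fits without each library were run.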

Additional observations from a re-analysis of the deposited data

How the results depend on the processing

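Of the 33 hosts, 14 passed the test, 9 higher and 5 lower. That number was 13 without the low-count filter and with DESeq2, 15 with the replicate block, and 14 with the other scalings, the other count filter, limma voom and an older edgeR fit (added after seeing the data). Leaving out 1 library at a time gave 13 to 14, with 8 to 9 higher and 5 lower. The 5 hosts that fell (MIR17HG, DLEU2, MIR1915HG, MIR130AHG, MIR600HG) passed under all 13 alternatives, and so did 6 of the 9 that rose (MIR22HG, MIR4435-2HG, MIR100HG, MIRLET7IHG, MIR137HG, MIR124-1HG). The other 3, MIR181A2HG, MIR9-1HG and MIR503HG, lost their call under the settings given with their values. Calls were gained by MIR3142HG with the replicate block (log2 1.82, adjusted p = 0.0235) and without the first shIGF2BP3 library (2.41, adjusted p = 0.0154), by MIR7-3HG without the second shIGF2BP3 library (1.77, adjusted p = 0.0260) and by MIR29B2CHG without the second shControl library (1.01, adjusted p = 0.0361), all by edgeR; the cause was not tested. Other alternatives took these hosts down to 0.65, -0.20 and 0.09, not called. No called host changed direction. DICER1 also lost its call without the low-count filter (adjusted p = 0.0569) and without the first shIGF2BP3 or shControl library (adjusted p = 0.149 and 0.0942). With a single library left in an arm, it is assumed to vary like the other group. Replicate numbers were not read as pairs, since deviations of same-numbered libraries correlated at 0.0208. The median over all genes was 0.01, and 0.09 with library size alone. Among the hosts with a mean level under 1 CPM, log2 differences of up to 1.77 were not called; the part of depth and of replicate spread in this was not tested.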
